A study of Mus musculus with 15 samples.

Results

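Collagens are the main structural proteins of the extracellular matrix, and the mouse genes for their chains were followed here across the liver and 4 sections of the intestine. The set holds every gene whose symbol is Col, a number, the letter a and a number, which gave 44 of the 23349 genes in the deposited table after rows with the same symbol were summed. Each collagen had a single row. By textbook types, 11 of the 44 were fibrillar chains, 6 were chains of type IV, the network collagen of basement membranes, and 27 belonged to other types.

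The mice were male, wild type and of the C57BL/6 strain, at an age of 2 to 3 months, and the labels name no treatment and no transgene. The 5 groups were duodenum, jejunum, ileum and large intestine (colon), each flushed of its contents, and liver taken without the gallbladder, with 3 libraries each and 15 in all. Total RNA of snap-frozen tissue was sequenced, and levels are FPKM, which divides the fragments of a gene by its transcript length and by the library's mapped fragments. The series was made to quantify genes of xenobiotic processing, so the collagen comparisons use the same tissues for another gene family. A library is called by its tissue and its title number, and no label tells whether the 3 libraries of a tissue stand for separate animals. P-values therefore reflect only how these samples vary, and that variation may be technical.

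Collagen chains wind around each other to form a triple helix in the endoplasmic reticulum, are secreted, and assemble into fibrils, sheets or filaments outside the cell. Fibrillar collagens such as types I, III and V form the rope-like bundles of connective tissue, type IV forms the sheet under epithelia and around vessels and muscle cells, and type VI forms beaded filaments beside them. In the gut wall, fibrillar collagens are known chiefly from the submucosa, where fibroblasts and smooth muscle cells make them. A healthy liver holds little fibrillar collagen, and its sinusoids lack a continuous basement membrane.

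Marker sums set the liver libraries apart from the intestinal ones, as labelled. Which section of the intestine a library came from was not tested. Summed FPKM of 6 hepatocyte markers was 16.99 to 216 in the sections, against 48823 to 57113 in liver, and 6 epithelial markers summed to 1667 to 3310 in the sections, against 14.4 to 23.2 in liver. Large intestine libraries had the lowest total FPKM, 384287 to 389243, against 428494 to 541581 in the small intestine and 519437 to 537031 in liver. Jejunum 24 deviated from its group against ileum 24 (r = -0.49 between their deviations across genes), while it deviated with ileum 27 (r = 0.52) and jejunum 28 with ileum 24 (r = 0.42). Whether a label of jejunum 24 or ileum 24 is exchanged cannot be told from the values, so calls that change without both are given. The depth is unknown, as FPKM alone gave back no read counts.

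Collagen genes were tested with limma on log2(FPKM + 1), fitted to all 13757 genes that reached 1 FPKM in at least 3 libraries, and 26 of the 44 collagens passed that filter. A gene is called higher or lower where the adjusted p is under 0.05 and the log2 difference is at least 1 in size, and each difference is given with its standard error (SE). The filter bears on the counts, because Col8a1 and Col28a1 passed it through the large intestine alone and 11 of the 26 were below 1 FPKM in every liver library. Col4a6 also passed only with its 3 large intestine libraries, as just 1 other library, of jejunum, reached 1 FPKM. The 7 fibrillar genes tested were Col1a1, Col1a2, Col3a1, Col5a1, Col5a2, Col5a3 and Col27a1. The 4 type IV genes were Col4a1, Col4a2, Col4a5 and Col4a6, and 15 genes were of other types.

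**Figure D1:**
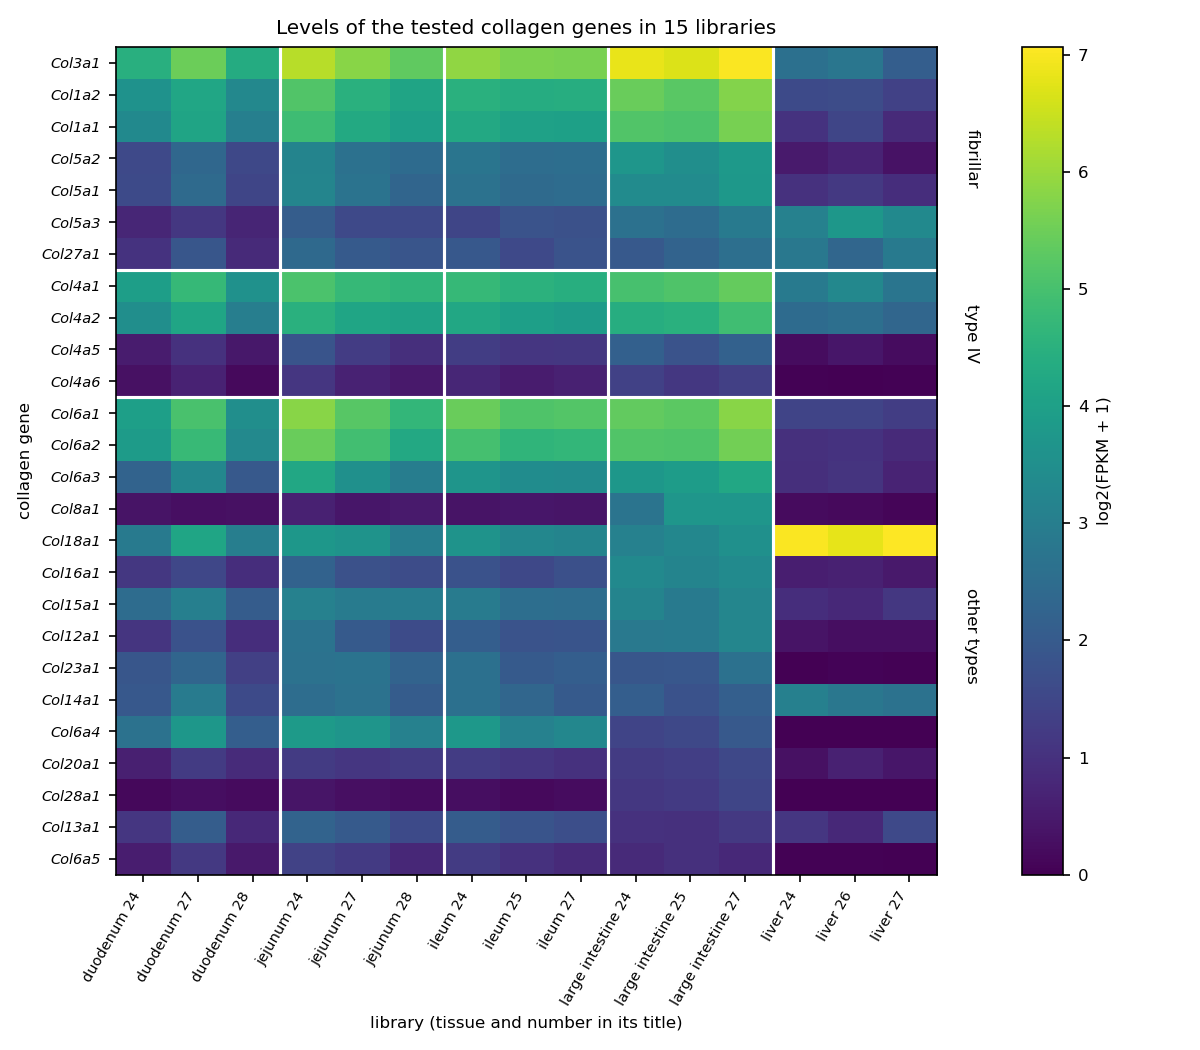
Colour gives log2(FPKM + 1) of the 26 tested collagen genes (rows, grouped by type and sorted by their large intestine mean) in the 15 libraries (columns, white lines between tissues). Col3a1 reached 102 to 130 FPKM in large intestine, and Col18a1 stood at 110 to 133 FPKM in liver.

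The intestine held more collagen transcript than the liver in 2 of the 3 classes. Summed fibrillar FPKM was 59.8 ± 26.6 in duodenum, 121 ± 40.9 in jejunum, 104 ± 8.79 in the ileum and 231 ± 34.4 in large intestine, against 24.7 ± 2.89 in liver (mean ± SD, n = 3 each). Summed type IV FPKM was 29.6 ± 13.3 in duodenum, 48.2 ± 8.97 in jejunum, 40.5 ± 5.16 in the ileum and 63.7 ± 10.1 in large intestine, against 11.9 ± 2.17 in liver. In both classes every intestinal library lay above every liver library. The other types summed to 77.1 ± 43.0 FPKM in duodenum, 133 ± 45.1 in jejunum, 118 ± 19.2 in the ileum and 156 ± 27.7 in large intestine, against 137 ± 11.99 in liver, and these groups overlapped. Without the single gene Col18a1, the other types summed to 67.0, 123, 109 and 147 FPKM in the 4 sections in that order, against 13.6 FPKM in liver. The place of that gene decides the order of the classes: with types VII, XV and XVIII counted as basement membrane, the summed FPKM of that class in large intestine was 0.590 times that of liver, and 11.1 times for the remaining other types.

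**Figure D2:**
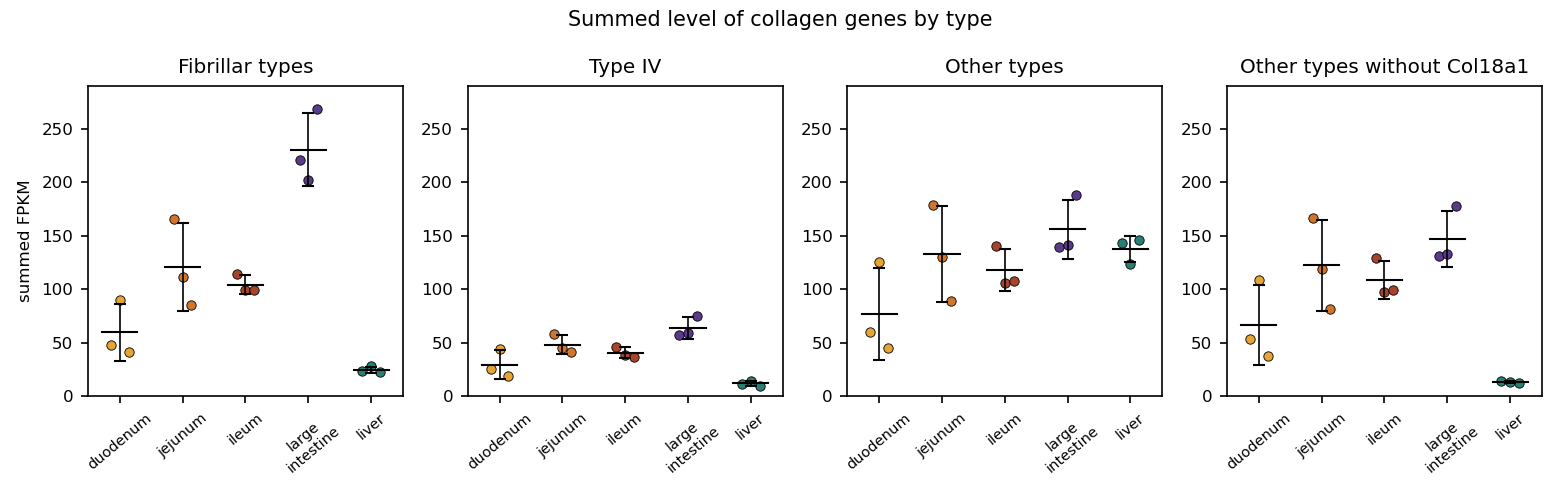
Summed FPKM of 11 fibrillar genes, 6 type IV genes, 27 genes of other types, and the other types without Col18a1, by tissue; points are libraries, bars the mean and whiskers 1 SD (n = 3). Large intestine is highest in the fibrillar panel at 202 to 269 FPKM, and liver is at 124 to 146 FPKM in the other types with Col18a1 and 12.7 to 14.7 FPKM without it.

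The mix of types differed with the tissue. Fibrillar genes made up 36.6% ± 2.55 of all collagen FPKM in duodenum, 39.8% ± 1.10 in jejunum, 39.8% ± 1.54 in ileum, 51.2% ± 1.53 in large intestine and 14.2% ± 2.29 in liver (mean ± SD, n = 3 each). Type IV made up 18.01% ± 1.19, 16.4% ± 2.43, 15.4% ± 0.52 and 14.1% ± 0.49 in the 4 sections in the same order, and 6.90% ± 1.54 in liver. The fibrillar share of large intestine, 50.2% to 53.0% over its libraries, lay above every other library, the next being at 41.0% in jejunum. Its type IV share, 13.6% to 14.6%, overlapped that of jejunum. Scaling a library by 1 factor leaves these shares as they are.

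In bulk tissue, fewer cells of a type and less RNA per cell cannot be told apart, which holds for every level given here. The summed FPKM of 10 fibroblast markers was 120 to 144 in duodenum, 155 to 222 in jejunum, 130 to 170 in the ileum and 212 to 296 in large intestine, against 61.9 to 79.0 in liver, where Dcn alone gave 54.2 to 70.0. That of 10 smooth muscle markers was 665 to 834, 778 to 1415, 724 to 772 and 2781 to 4104 in those sections, against 11.0 to 18.6 in liver. No marker of either list was at 0 in all 3 libraries of any tissue. Both lists thus had their lowest sums in liver and their highest in large intestine, as the fibrillar collagens had. Between duodenum and ileum the sums of either list overlapped, whereas those of the fibrillar collagens did not. The part of both lists in the collagen differences was not tested.

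In duodenum 12 of the 26 tested collagens were higher than in liver, where 30.6% of all tested genes were called higher, and 3 were lower, against 9.19% of all genes. The median log2 difference was 0.89 over the collagens and 0.58 over all genes. In jejunum 17 collagens were higher (36.9% of all genes) and 2 lower (8.94%), with medians of 1.74 over the collagens and 0.73 over all genes. In ileum 16 were higher (34.3%) and 2 lower (9.24%), with medians of 1.54 and 0.68. In large intestine 19 were higher (41.8%) and 1 lower (8.99%), with medians of 2.14 and 0.83. The 4 comparisons share the same liver libraries.

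The whole set of genes shifted against liver, and another scaling changed these counts. With median-of-ratios scaling the median over all genes moved to between -0.05 and 0.00 in the 4 comparisons, and genes called higher and lower came to 18.4% and 16.8% in duodenum, 18.5% and 18.7% in jejunum, 18.6% and 18.3% in ileum, and 19.6% and 19.5% in large intestine. Of the 24 collagens tested there, 9 were higher and 4 lower in duodenum, 12 and 4 in jejunum, 11 and 4 in ileum, and 17 and 4 in large intestine. With all libraries rescaled to the same sum, 57.9% of genes were higher and 7.50% lower in large intestine against liver, and 22 and 1 of 27 collagens. No called collagen changed its direction under any scaling.

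In every section the fibrillar genes were led by Col3a1, the single chain of type III collagen, which is found in pliable tissues beside type I. In liver it averaged 4.75 FPKM, below Col5a3 at 9.67 and Col27a1 at 5.49. Col3a1 stood at 21.2, 43.3 and 19.3 FPKM in duodenum, 77.5, 54.9 and 39.7 in jejunum, 58.1, 50.0 and 48.9 in the ileum and 114, 102 and 130 in large intestine, against 5.11, 5.78 and 3.35 in liver. All 12 intestinal libraries lay above the liver libraries and all 3 large intestine libraries above the other 12. Its log2 difference against liver was 2.26 in duodenum, 3.32 in jejunum, 3.24 in the ileum and 4.36 in large intestine (SE 0.29 each, limma adjusted p = 9.70e-09 in large intestine). The gene lies on chromosome 1 at 45311538 to 45349706 of mm10, plus strand, and Col5a2 lies 24.6 kb past its end on the other strand.

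The bases before its start are shown because this is the most abundant collagen of every section, and its window is one of 5 among 35 collagen genes that hold TATAAA. RefSeq windows of the 250 bases before each gene start (GRCm38.p6) were searched on both strands for CCAAT, which 33.8% of 32851 windows held, for GGGCGG, held by 32.7%, and for TATAAA, held by 12.4%. Of the collagen genes with a window, 13 held CCAAT and 21 held GGGCGG. Some genes have more than 1 window, and of the 38 collagen windows 34.2% held CCAAT, 57.9% GGGCGG and 13.2% TATAAA. Capitals mark these motifs, the lines run 5′ to 3′ on the strand of the gene, and a match is a description of letters only. Col3a1 is at chr1:45311288-45311537 on the plus strand, and Col1a2, the second chain of type I, at chr6:4505368-4505617 on the plus strand.
Col3a1: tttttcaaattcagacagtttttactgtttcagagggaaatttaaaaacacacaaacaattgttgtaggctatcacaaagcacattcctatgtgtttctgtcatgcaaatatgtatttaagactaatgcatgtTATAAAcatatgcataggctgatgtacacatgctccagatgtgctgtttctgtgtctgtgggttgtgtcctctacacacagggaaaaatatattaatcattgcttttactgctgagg
Col1a2: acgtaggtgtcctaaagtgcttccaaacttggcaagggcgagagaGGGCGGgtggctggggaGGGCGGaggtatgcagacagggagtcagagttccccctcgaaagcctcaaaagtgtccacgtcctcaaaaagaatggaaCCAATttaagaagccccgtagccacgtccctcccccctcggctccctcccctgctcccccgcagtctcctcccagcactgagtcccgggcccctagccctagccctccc
The Col3a1 window has 35.2% G and C and 1 TATAAA, and the Col1a2 window has 62.0% G and C, 1 CCAAT and 2 GGGCGG.

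The chains of type I, the main collagen of most connective tissue, followed the same order of tissues as Col3a1. Col1a1 stood at 9.18, 16.5 and 7.32 FPKM in duodenum, 28.4, 18.7 and 14.9 in jejunum, 18.3, 15.4 and 15.2 in the ileum and 34.2, 33.1 and 48.3 in large intestine, against 1.03, 1.77 and 0.79 in liver. Its log2 difference between large intestine and liver was 4.17 (SE 0.28, limma adjusted p = 1.18e-08), a ratio of means of 32.2. Col1a2 averaged 12.4 ± 4.29, 24.02 ± 9.16, 20.4 ± 1.03 and 44.3 ± 7.83 FPKM in the sections in gut order, against 1.88 ± 0.28 FPKM in liver. For both genes large intestine lay above all other libraries and liver below, while jejunum overlapped ileum.

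Type V chains, which are built into type I fibrils and limit their width, split. Col5a1 averaged 2.72 ± 1.44, 5.90 ± 2.17, 4.81 ± 0.48 and 10.7 ± 1.75 FPKM in duodenum, jejunum, ileum and large intestine, against 1.05 ± 0.18 in liver. Col5a2 averaged 2.66 ± 1.30, 5.98 ± 1.93, 5.09 ± 0.53 and 11.8 ± 1.41 FPKM in the same sections, against 0.45 ± 0.17 in liver. Both were called higher than liver in jejunum, ileum and large intestine, and Col5a2 in duodenum too. With a pseudocount of 0.1 Col5a1 was also called in duodenum, at 1.19. With median-of-ratios scaling Col5a1 lost the ileum call, at 0.94, and Col5a2 the duodenum call, at 0.98. With quantile normalization Col5a1 lost jejunum and ileum, at 0.80 and 0.65, and Col5a2 duodenum, at 0.57.

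Col5a3, the least common chain of type V, ran the other way. It stood at 0.69, 1.19 and 0.66 FPKM in duodenum, 3.28, 1.95 and 1.96 in jejunum, 1.78, 2.48 and 2.35 in the ileum and 5.17, 4.66 and 6.53 in large intestine, against 7.60, 12.2 and 9.16 in liver. All 3 liver libraries lay above the other 12. The log2 difference against liver was -2.52 in duodenum, -1.65 in jejunum and -1.72 in ileum, each called lower (limma adjusted p = 2.52e-08, 1.89e-06 and 1.31e-06), and -0.71 in large intestine, under the size needed for a call. Under median-of-ratios scaling the large intestine value was -1.71 and was called lower, as with quantile normalization, at -1.57.

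Col27a1, a fibrillar chain known from cartilage, was also highest in liver by its mean, at 1.51 ± 1.02, 3.34 ± 0.90, 2.42 ± 0.47 and 3.90 ± 1.03 FPKM in the sections in gut order, against 5.49 ± 1.30 in liver. Liver overlapped large intestine, and the duodenum alone was called lower as deposited (log2 difference -1.42, SE 0.26, limma adjusted p = 0.000183). With median-of-ratios scaling it was also called lower in jejunum, ileum and large intestine, at -1.42, -1.69 and -1.35, as with quantile normalization, at -1.38, -1.62 and -1.32. The ileum, at -0.91 as deposited, was also called lower without jejunum 24 and ileum 24, at -1.006, without liver 26, at -1.09, and with a pseudocount of 0.1, at -1.14. The 4 fibrillar genes not tested were Col2a1, Col11a1, Col11a2 and Col24a1, with highest libraries of 0.0172, 0.198, 0.756 and 0.534 FPKM.

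Chains of type IV were higher than in liver as well, in every section for Col4a1 and Col4a2. Col4a1 stood at 14.6, 25.5 and 10.8 FPKM in duodenum, 32.7, 25.5 and 23.7 in jejunum, 25.7, 22.4 and 20.5 in the ileum and 31.3, 33.4 and 41.1 in large intestine, against 6.49, 8.75 and 5.70 in liver. Its partner Col4a2 stood at 10.3, 16.8 and 7.10 FPKM in duodenum, 21.4, 17.0 and 15.8 in jejunum, 18.02, 14.8 and 13.7 in the ileum and 20.3, 21.6 and 28.8 in large intestine, against 4.56, 5.03 and 4.02 in liver. The log2 difference between large intestine and liver was 2.19 for Col4a1 and 2.14 for Col4a2 (SE 0.24 and 0.23, limma adjusted p = 1.62e-06 and 1.19e-06). No intestinal library of either gene fell within the liver range, but large intestine overlapped jejunum. Under median-of-ratios scaling both lost the call in duodenum, jejunum and ileum and kept it in large intestine, at 1.17 and 1.15. With quantile normalization both lost it in duodenum, at 0.50 and 0.48, and in ileum, at 0.94 and 0.86. Without duodenum 27 the duodenum calls were lost, at 0.78 and 0.80, and that of Col4a1 also without liver 27, at 0.99.

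Col4a1 and Col4a2, whose proteins wind together in a fixed ratio in the common form of type IV, lie head to head on chromosome 8 with 2 bases between their ends in the deposited table. By RefSeq their starts lie 21 bases apart and their transcripts overlap, and their windows of 250 bases before to 50 after the start share 78 bases. That stretch is shown because the pair's levels moved together, at chr8:11312777-11312854 of GRCm38.p6 on the plus strand, which is the strand of Col4a2, with the 1 GGGCGG in capitals.
Col4a1 and Col4a2: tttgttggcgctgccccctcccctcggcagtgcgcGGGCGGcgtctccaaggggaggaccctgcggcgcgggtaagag
It has 73.1% G and C and holds neither a whole CCAAT nor TATAAA. Its first base is the last base of a CCAAT in the Col4a2 window. The windows of 250 bases before the starts of Col4a1 and Col4a2 hold 1 CCAAT each. The ratio of Col4a1 to Col4a2 FPKM was 1.41 to 1.74 over all 15 libraries, while Col4a2 itself ran over 4.02 to 28.8 FPKM. It averaged 1.495 ± 0.048 over the 12 intestinal libraries and 1.53 ± 0.19 over the 3 of liver.

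The other type IV chains were far lower. Col4a5 averaged 0.61 ± 0.34, 1.62 ± 0.84, 1.26 ± 0.13 and 3.19 ± 0.61 FPKM in the sections in gut order, against 0.24 ± 0.10 in liver. Col4a6, its neighbour on chromosome X and a chain of smooth muscle basement membranes, averaged 0.32 ± 0.25, 0.73 ± 0.41, 0.58 ± 0.13 and 1.44 ± 0.22 FPKM, against 0.026 ± 0.017 in liver. Both were called higher in large intestine than in liver, at 1.75 and 1.25 on the log2 scale (limma adjusted p = 1.42e-06 and 4.42e-06). Col4a6 passed the filter only with its large intestine libraries, so a difference was built into its being tested. Col4a5 was called in jejunum too, at 1.04, but not without jejunum 24, at 0.80, nor with median-of-ratios, quantile or same-sum scaling, at 0.72, 0.076 and 0.996. With quantile normalization both large intestine calls were lost, at 0.69 for Col4a5 and 0.53 for Col4a6. With a pseudocount of 0.1 Col4a6 was called higher than liver in duodenum, jejunum and ileum too, at 1.61, 2.61 and 2.42. Col4a5 then gained duodenum and ileum, at 1.02 and 2.06. Col4a3 and Col4a4, the chains known from the kidney filter, were not tested, with highest libraries of 0.40 and 0.14 FPKM.

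Among the other types, Col18a1 was the 1 gene far above all sections in liver. Its protein is a basement membrane proteoglycan that carries endostatin at its end, and in liver it is known to be made by hepatocytes. It stood at 6.34, 16.8 and 7.13 FPKM in duodenum, 12.2, 11.4 and 7.01 in jejunum, 11.4, 8.62 and 8.06 in the ileum and 7.63, 8.62 and 10.6 in large intestine, against 128, 110 and 133 in liver. The lowest liver library was thus far above the highest intestinal one, and the sections overlapped each other. The log2 difference against liver was -3.61, -3.51, -3.60 and -3.66 in gut order (SE 0.29 each, limma adjusted p from 6.73e-08 to 1.22e-07), called lower in each. Only Col18a1 and Col5a3 of the 26 had all 3 liver libraries above the other 12, a pattern of 11% of tested genes, whereas 20 had all 3 liver libraries below, as had 60.1%.

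Col18a1 made up 5.99% ± 1.09 of the collagen FPKM of duodenum, 3.43% ± 0.49 in jejunum, 3.54% ± 0.24 in the ileum and 1.99% ± 0.16 in large intestine, against 71.1% ± 4.12 in liver (mean ± SD, n = 3 each). Next in liver came Col5a3 at 5.56% of the mean and Col4a1 at 4.01%. In every section Col3a1 and Col6a1 led. The deposited row covers chromosome 10 from 77052179 to 77166530, minus strand, and lists 2 starts, so long and short forms are summed in it. The 250 bases before each RefSeq start are shown because the gene is known to be read from 2 promoters, the first at chr10:77166531-77166780 and the second at chr10:77113706-77113955, both on the minus strand.
Col18a1, outer start: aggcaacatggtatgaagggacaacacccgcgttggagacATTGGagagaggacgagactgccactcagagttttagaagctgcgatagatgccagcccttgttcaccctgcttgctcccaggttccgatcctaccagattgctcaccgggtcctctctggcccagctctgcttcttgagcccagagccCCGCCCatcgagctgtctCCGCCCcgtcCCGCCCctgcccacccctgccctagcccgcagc
Col18a1, inner start: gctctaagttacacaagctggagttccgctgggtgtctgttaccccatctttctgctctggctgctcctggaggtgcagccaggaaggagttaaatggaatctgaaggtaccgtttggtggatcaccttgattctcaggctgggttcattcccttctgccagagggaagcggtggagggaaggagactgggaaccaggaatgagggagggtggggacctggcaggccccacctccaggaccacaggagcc
The outer window has 1 CCAAT and 3 GGGCGG, counted on both strands, and the inner one has none of the 3 motifs. The data do not say which start was used. Col6a1 is the nearest collagen gene on that chromosome, 326 kb away, with Col6a2 85.4 kb beyond it, and both were lowest in liver.

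**Figure D3:**
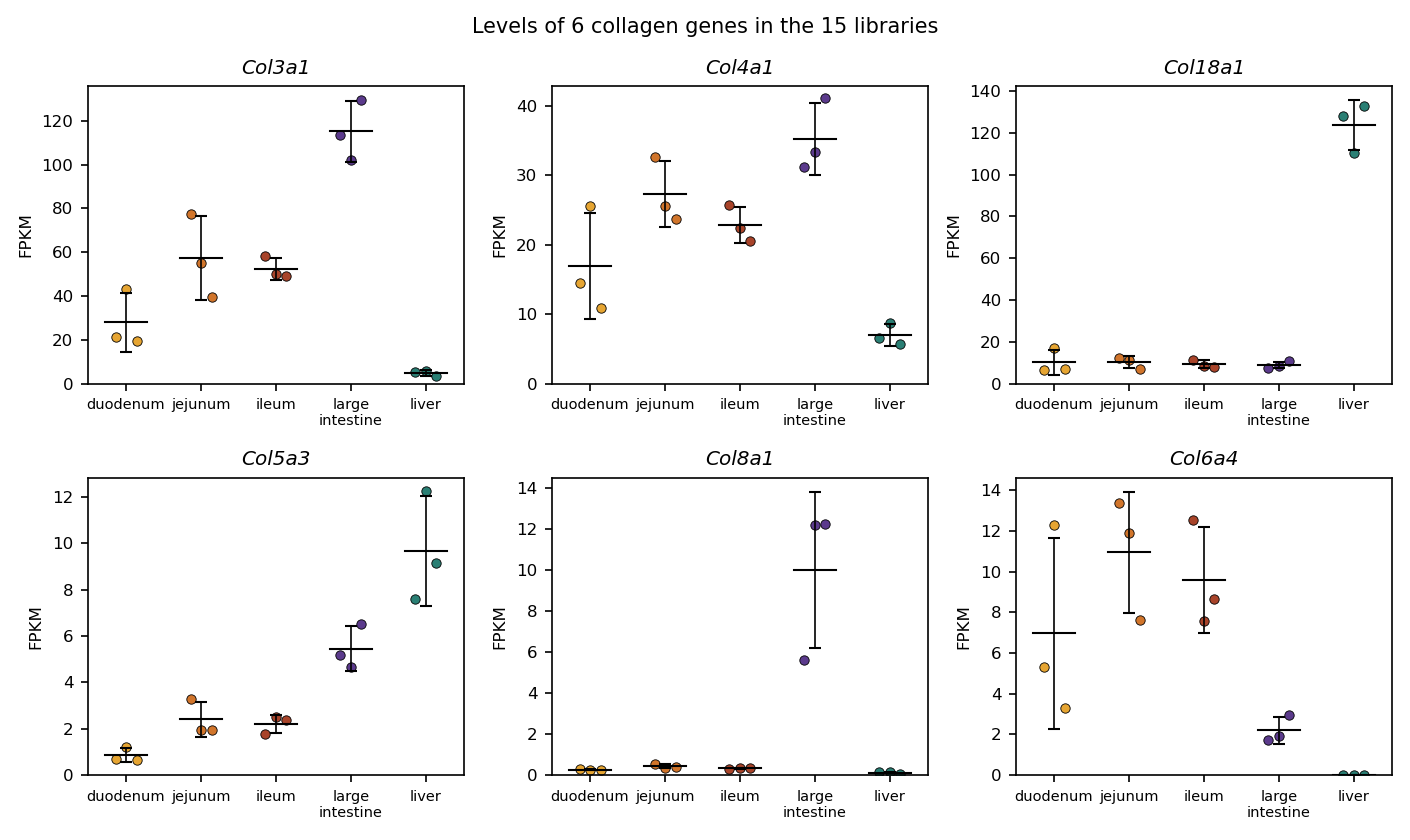
FPKM of 6 collagen genes by tissue; points are libraries, bars the mean and whiskers 1 SD (n = 3), each panel with its own axis from 0. Col3a1 and Col4a1 are lowest in liver, Col18a1 and Col5a3 highest there, Col8a1 is at 5.61 to 12.2 FPKM in large intestine and 0.0703 to 0.555 FPKM elsewhere, and Col6a4 is at 3.31 to 13.4 FPKM in small intestine and 1.73 to 2.96 FPKM in large intestine.

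Type VI chains, which form beaded filaments around cells, were among the most abundant of the gut. Col6a1 averaged 19.1 ± 11.4, 38.8 ± 15.6, 37.1 ± 4.88 and 44.4 ± 9.01 FPKM in the sections in gut order, against 1.63 ± 0.18 in liver. Col6a2 averaged 16.2 ± 8.77, 30.3 ± 12.5, 26.2 ± 3.77 and 38.0 ± 6.96 FPKM, against 0.95 ± 0.14 in liver, and Col6a3 5.06 ± 3.07, 11.8 ± 5.50, 10.5 ± 1.27 and 14.8 ± 2.72 FPKM, against 0.88 ± 0.24 in liver. All 3 were called higher than liver in every section, by 4.10, 4.31 and 3.06 on the log2 scale in large intestine. With quantile normalization Col6a3 lost the duodenum call, at 0.88.

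Col6a4 and Col6a5, later-described chains that can take the place of the third chain, lie side by side on chromosome 9 and had another pattern. Col6a4 stood at 5.33, 12.3 and 3.31 FPKM in duodenum, 13.4, 11.9 and 7.64 in jejunum, 12.6, 7.58 and 8.64 in the ileum and 1.73, 1.90 and 2.96 in large intestine, against 0, 0.00534 and 0.00341 in liver. The gene was high in the small intestine, lower in large intestine and near 0 in liver, with no overlap between these 3 levels. It was called higher than liver in every section, at 1.65 in large intestine and 2.83 to 3.54 in the small intestine on the log2(FPKM + 1) scale. Col6a5 averaged 0.72 ± 0.48, 1.20 ± 0.45, 1.06 ± 0.28 and 0.85 ± 0.12 FPKM in the sections, against 0.023 ± 0.0060 in liver, and was called in jejunum and ileum at 1.09 and 1.001. Without jejunum 24 and ileum 24 both of those calls were lost, at 0.95 and 0.90, as they were with median-of-ratios scaling, at 0.94 and 0.90, and quantile normalization, at 0.45 and 0.46. The ileum call was also lost with the same sum, at 0.94, and without liver 27, at 0.996, and large intestine gained one with the same sum, at 1.02. With a pseudocount of 0.1 Col6a5 was called higher than liver in duodenum and large intestine too, at 2.59 and 2.94. Col6a6, next in the cluster, did not pass the filter, with a highest library of 0.064 FPKM.

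Fibril-associated collagens sit on the surface of fibrils and link them. Col12a1 averaged 1.49 ± 0.82, 3.52 ± 1.76, 2.78 ± 0.46 and 7.05 ± 1.29 FPKM in the sections, against 0.22 ± 0.054 in liver. Col16a1 averaged 1.32 ± 0.48, 2.73 ± 0.85, 2.19 ± 0.29 and 8.86 ± 0.69 FPKM, against 0.49 ± 0.079 in liver. Both were called higher than liver in jejunum, ileum and large intestine. Col16a1 lost the jejunum and ileum calls with median-of-ratios scaling, at 0.83 and 0.69, and both genes lost them with quantile normalization, Col16a1 at 0.33 and 0.22 and Col12a1 at 0.88 and 0.76. Col12a1 was called higher in duodenum too without duodenum 24, at 1.06, duodenum 28, at 1.14, or liver 24, at 1.01, and with the same sum, at 1.03. With a pseudocount of 0.1 Col12a1 and Col16a1 were both called there, at 2.19 and 1.22. Col14a1 averaged 3.86 ± 2.49, 4.40 ± 1.13, 4.07 ± 1.07 and 3.08 ± 0.55 FPKM, against 6.26 ± 1.07 in liver, with log2 differences of -0.44 to -0.83 that were not called. With median-of-ratios scaling it was called lower than liver in every section, at -1.40, -1.30, -1.33 and -1.77, and with quantile normalization too, at -1.22 to -1.75. Without duodenum 27 it was called lower in duodenum, at -1.08, and with a pseudocount of 0.1 in large intestine, at -1.004. Col20a1 averaged 0.91 ± 0.41, 1.28 ± 0.0994, 1.20 ± 0.19 and 1.58 ± 0.27 FPKM, against 0.39 ± 0.17 in liver, and was not called in any comparison as deposited. It was called higher than liver in every section with a pseudocount of 0.1, at 1.02 to 1.82, and in large intestine with the same sum, at 1.14.

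Col15a1, like Col18a1 a basement membrane collagen with an endostatin-like end, did not share its liver pattern. It averaged 5.06 ± 2.11, 7.04 ± 0.53, 5.47 ± 1.11 and 7.69 ± 1.09 FPKM in the sections in gut order, against 0.96 ± 0.24 in liver, and was called higher than liver in every section, at 1.58 to 2.15 on the log2 scale, but not in duodenum and ileum with quantile normalization, at 0.88 and 0.87. Of the transmembrane collagens, Col23a1 averaged 2.73 ± 1.22, 4.84 ± 0.97, 3.79 ± 1.17 and 3.55 ± 1.44 FPKM, against 0.036 ± 0.017 in liver, and was called higher in every section. Col13a1, which serves cell adhesion and the neuromuscular junction, averaged 1.72 ± 1.34, 2.92 ± 0.86, 2.67 ± 0.48 and 1.09 ± 0.15 FPKM, against 1.31 ± 0.61 in liver, and was not called in any comparison as deposited. It was called lower in large intestine than in liver with quantile normalization, at -1.12, and higher in jejunum and ileum with a pseudocount of 0.1, at 1.15 and 1.05. The 12 genes of other types that were not tested were Col6a6, Col7a1, Col8a2, Col9a1, Col9a2, Col9a3, Col10a1, Col17a1, Col19a1, Col22a1, Col25a1 and Col26a1. Of these Col8a2 reached 1.24 FPKM in jejunum 24, and 17 of all 18 untested collagens were below 1 FPKM in every library.

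Set against the mean of the 3 small intestinal sections, the large intestine had more fibrillar collagen transcript. Of the 26 tested collagens 10 were higher (8.78% of all genes) and 1 was lower (5.84% of all genes), with a median log2 difference of 0.71 over the collagens and 0.16 over all genes. By class, 6 of 7 fibrillar genes, 0 of 4 type IV genes and 4 of 15 genes of other types were higher. The type IV count depended on the pseudocount, as Col4a5 and Col4a6 were called with one of 0.1. All 3 large intestine libraries lay above the other 12 for 10 of the 26, a pattern of 23.3% of tested genes. Col8a1 and Col28a1 are among these 10, among the 10 called higher and among the 4 of other types. Both passed the filter through the large intestine alone, so a difference was built into their being tested. Col4a6 is also among the 10 with all large intestine libraries on top, and it too passed only with those libraries. Under median-of-ratios scaling 8 of 24 were higher, at 6.30% of all genes, and with libraries rescaled to the same sum 15 of 27, at 16.8%.

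The 6 called fibrillar genes had differences of 1.16 to 1.42. The log2 difference was 1.42 for Col3a1, 1.28 for Col1a1, 1.27 for Col5a2, 1.25 for Col1a2, 1.25 for Col5a3 and 1.16 for Col5a1, with SE of 0.15 to 0.24 and limma adjusted p from 1.25e-05 to 0.000375. In FPKM, Col1a1 stood at 33.1 to 48.3 in large intestine, and its small intestinal libraries ran over 7.32, 15.4 and 28.4 as lowest, median and highest. Only Col27a1 was not called, at 0.57 (SE 0.21, limma adjusted p = 0.0327). Col5a1 fell just under the size threshold with median-of-ratios scaling, at 0.96.

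The 4 type IV genes had positive differences below that threshold: limma called 0, though all 4 had an unadjusted p under 0.05, and 0, 0 and 3 were called with median-of-ratios, quantile and same-sum scaling. The log2 difference was 0.995 for Col4a5 (SE 0.16, limma adjusted p = 0.000143), 0.68 for Col4a6, 0.68 for Col4a1 and 0.66 for Col4a2. With a pseudocount of 0.1, which compresses low levels less, Col4a5 and Col4a6 were called higher, at 1.53 and 1.41. Of these Col4a6 passed the filter only with its large intestine libraries. In ratios of means, large intestine over small intestine was 1.62 for the summed type IV genes and 2.43 for the summed fibrillar genes, and 1.78 and 2.81 without jejunum 24 and ileum 24. The difference between the 2 classes was not tested. Without jejunum 24 and ileum 24, Col4a5 was called, at 1.09, and likewise without duodenum 27, jejunum 24, ileum 24 or large intestine 25 alone, at 1.01 to 1.12.

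Col8a1, a short chain of the network collagens made by vessel and smooth muscle cells, had the largest difference between the parts of the gut. It stood at 5.61, 12.2 and 12.2 FPKM in large intestine, and its 9 small intestinal libraries had 0.23, 0.32 and 0.56 FPKM as lowest, median and highest. Every large intestine library was thus far above every small intestinal one. The log2 difference was 2.97 (SE 0.16, limma adjusted p = 4.26e-09). As it passed the filter through the large intestine alone, a difference was built into its being tested. Its partner chain Col8a2 stayed at 0.69 to 0.996 FPKM in large intestine and 0.38 to 1.24 FPKM in small intestine.

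Other genes of the remaining types rose in the large intestine too. Col16a1 stood at 9.16, 8.07 and 9.35 FPKM there, against 0.91, 2.10 and 3.70 FPKM as lowest, median and highest in small intestine, a log2 difference of 1.72 (SE 0.13, limma adjusted p = 1.33e-07). Col12a1 differed by 1.24 (SE 0.21, limma adjusted p = 0.000184). Col28a1, a type VI relative known from nerve, stood at 1.23, 1.28 and 1.80 FPKM in large intestine, against 0.11 to 0.33 FPKM in small intestine, and differed by 1.03 (SE 0.07, limma adjusted p = 6.32e-08). With quantile normalization its calls against small intestine and liver were lost, at 0.76 and 0.74. The groups did not overlap for any of these 3, and Col28a1, like Col8a1, passed the filter through the large intestine alone.

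Col6a4 was the 1 gene lower in large intestine, at 1.73, 1.90 and 2.96 FPKM, against 3.31, 8.64 and 13.4 FPKM as lowest, median and highest in small intestine. Its log2 difference was -1.60 (SE 0.28, limma adjusted p = 0.000282), and the groups did not overlap. The main type VI chains Col6a1, Col6a2 and Col6a3 had differences of 0.60, 0.73 and 0.77, none called, with overlapping groups. With libraries rescaled to the same sum Col6a2 and Col6a3 were called higher, at 1.13 and 1.15. Col18a1, Col23a1 and Col6a5 had differences between -0.08 and -0.06, and Col13a1 and Col14a1 -0.66 and -0.28.

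**Figure D4:**
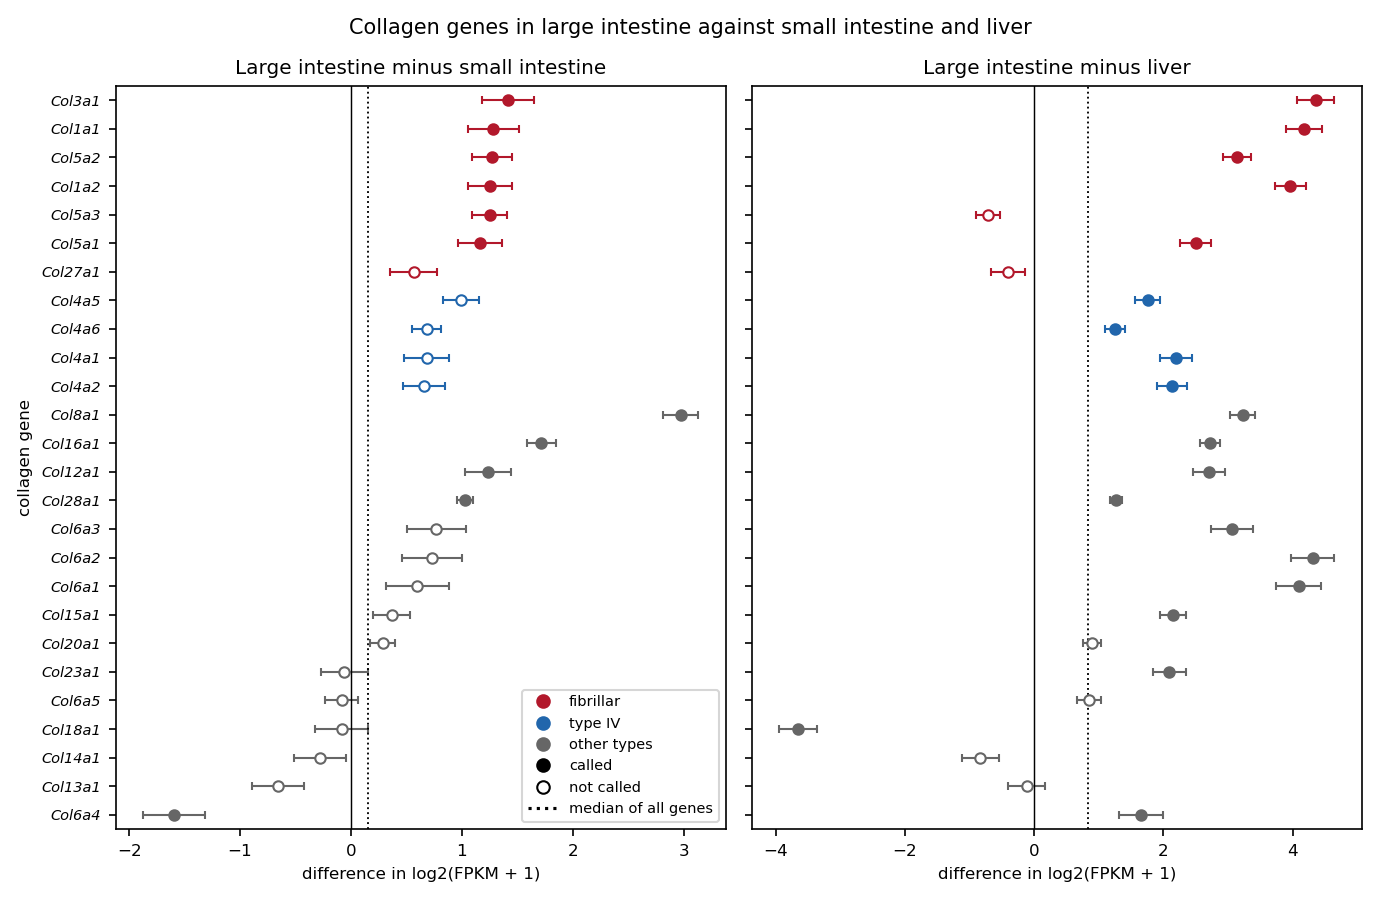
Difference in log2(FPKM + 1) of the 26 tested collagens in large intestine minus small intestine (left) and minus liver (right), with 1 SE; filled points are called, open points are not, and the dotted line is the median of all genes (0.16 left, 0.83 right). The 6 called fibrillar genes sit between 1.16 and 1.42 on the left, with Col8a1 at 2.97 and Col6a4 at -1.60 as the outermost points.

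The smooth muscle markers moved with this comparison, as 10 of 10 were higher in large intestine with a median log2 difference of 1.60, led by Cnn1 at 2.60 (limma adjusted p = 1.53e-08). Of the 10 fibroblast markers 4 were higher, with a median of 0.86, led by Dpt at 1.71 (limma adjusted p = 4.00e-06). Limma called 0 of the 8 endothelial markers, with 2 at an unadjusted p under 0.05 and 0 called in each of the 3 other scalings, and their median was -0.05. The summed endothelial level was 45.1 to 49.7 FPKM in large intestine, against 34.1 to 61.5 in small intestine. Of 4 tested enteric glia markers 1 was higher, Gfap at 1.02. Of 6 epithelial markers 2 were lower, Vil1 at -1.61 and Cdh17 at -1.08, with a median of -0.35 and sums of 1667 to 2142 FPKM in large intestine, against 2133 to 3310 in small intestine. Of 6 tested pancreatic acinar markers 1 was higher, Cela1 at 4.15. The part of these markers in the collagen differences was not tested.

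Marker lists of other cells were followed beside the liver comparisons. Summed FPKM of 6 hepatic stellate markers was 10.6 to 16.8 in the sections, against 28.5 to 32.5 in liver. In gut order 3, 2, 2 and 2 of the 6 were lower than liver, led by Colec11 at -4.06 to -3.99. The 1 higher in each section was Lrat at 1.29, 1.01 and 1.01 in duodenum, jejunum and ileum, and Hand2 at 1.28 in large intestine. Of all tested genes 30.6% to 41.8% were called higher than liver in the sections, and 8.94% to 9.24% lower. Adipocyte markers summed to 53.7 to 214 FPKM in the sections, against 0.98 to 3.74 in liver, where 1 of 5 was at 0 in all libraries, and 4 of 4 tested were higher in each section, led by Cfd at 4.19 to 5.21. Enteric glia markers summed to 2.70 to 9.75 FPKM in the sections, against 0.43 to 0.59 in liver, where 2 of 5 were at 0. Of the mesothelial list Krt19, which epithelia share, was the 1 gene tested, and the list summed to 510 to 1421 FPKM in the sections, against 1.73 to 2.66 in liver. The part of these cells in the collagen differences was not tested.

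Along the small intestine, 3 collagens were called higher in jejunum than in duodenum, at 0.807% of all genes, and 0 lower, at 0.981%. They were Col3a1, Col6a1 and Col6a3, with log2 differences of 1.05, 1.06 and 1.11 (SE 0.29, 0.35 and 0.33, limma adjusted p = 0.0268, 0.0435 and 0.0328). Their groups overlapped: Col6a3 stood at 17.8, 10.6 and 7.04 FPKM in jejunum, against 3.72, 8.57 and 2.90 FPKM in duodenum. Of 10 fibroblast markers 3 were higher in this comparison too, with a median of 0.61, led by Lum at 1.15 (SE 0.22, limma adjusted p = 0.0103), and their part was not tested. All 26 collagens had a positive difference, as had 68.3% of all genes, and the median was 0.70 over the collagens and 0.15 over all genes. The count rested on single libraries. It was 0 without jejunum 24, without both jejunum 24 and ileum 24, without duodenum 24 or without duodenum 28, 1 without jejunum 27, 9 without jejunum 28 and 12 without duodenum 27. The Col6a1 call was also lost with no filter (limma adjusted p = 0.0545) and without any 1 of 8 of the 9 libraries of other tissues (limma adjusted p = 0.0533 to 0.0576), large intestine 27 being the exception.

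Between ileum and jejunum limma called 0 collagens, and 0 of all genes either way (0% higher and 0% lower). None of the 26 had an unadjusted p under 0.05, and the same count of 0 came with the 3 other scalings. Differences ran from -0.33 for Col15a1 and Col27a1 to 0.01 for Col6a1, with a median of -0.15 over the collagens and -0.05 over all genes.

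Within a tissue the collagens went up and down together from library to library. Duodenum 27 was the highest duodenal library for 25 of the 26 tested collagens, against 49.8% of all genes, and duodenum 28 the lowest for 22, against 40.1%. Jejunum 24 was the highest of its tissue for 23, against 66.4% of all genes, and jejunum 28 the lowest for 22, against 59.3%. Ileum 24 was the highest for 24, against 33.2%, and large intestine 27 for 24, against 40.9%. In liver no library led to that degree, with liver 26 the highest for 17, against 40.5%.

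Marker levels differed among those libraries. Duodenum 27 had 144 FPKM of fibroblast and 58.6 FPKM of endothelial markers, against 120 and 34.1 FPKM in duodenum 28. Smooth muscle markers ran the other way, at 665 FPKM in duodenum 27, the lowest of its tissue, against 834 FPKM in duodenum 28, the highest. Duodenum 28 had 138 FPKM of 7 pancreatic acinar markers, against 5.64 and 11.4 FPKM in duodenum 27 and 24. Jejunum 24, ileum 24 and large intestine 27 had the highest fibroblast, smooth muscle and endothelial sums of their tissues. The part of these differences in the collagen levels was not tested.

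Ratios between chains that assemble together were read within each library. FPKM is per length, so levels of 2 genes can be set side by side within a library, and 7 of 11 pairs had both chains tested. The ratio of Col1a1 to Col1a2 was 0.85 ± 0.058 over the 12 intestinal libraries, and 0.52, 0.84 and 0.50 in liver. Col5a1 to Col5a2 was 0.96 ± 0.074 in intestine and 2.28, 1.99 and 3.20 in liver, with no overlap. Col6a1 to Col6a2 was 1.09 to 1.43 in intestine and 1.64 to 1.79 in liver, and Col6a3 to Col6a1 was 0.25 to 0.37 in intestine and 0.44 to 0.62 in liver. Liver thus lay outside the intestinal range for these 3 ratios, at chain levels of 0.28 to 1.75 FPKM.

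For the ratio of type III to type I the groups overlapped. Col3a1 to Col1a1 was 2.31 to 3.32 in intestine and 3.26 to 4.95 in liver. It averaged 2.52 ± 0.19 in duodenum, 2.78 ± 0.14 in jejunum, 3.21 ± 0.039 in the ileum and 3.03 ± 0.32 in large intestine. Col4a5 to Col4a6 was 1.64 to 3.04 in intestine and 4.74 to 59.1 in liver, where Col4a6 was at 0.0060 to 0.038 FPKM.

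**Figure D5:**
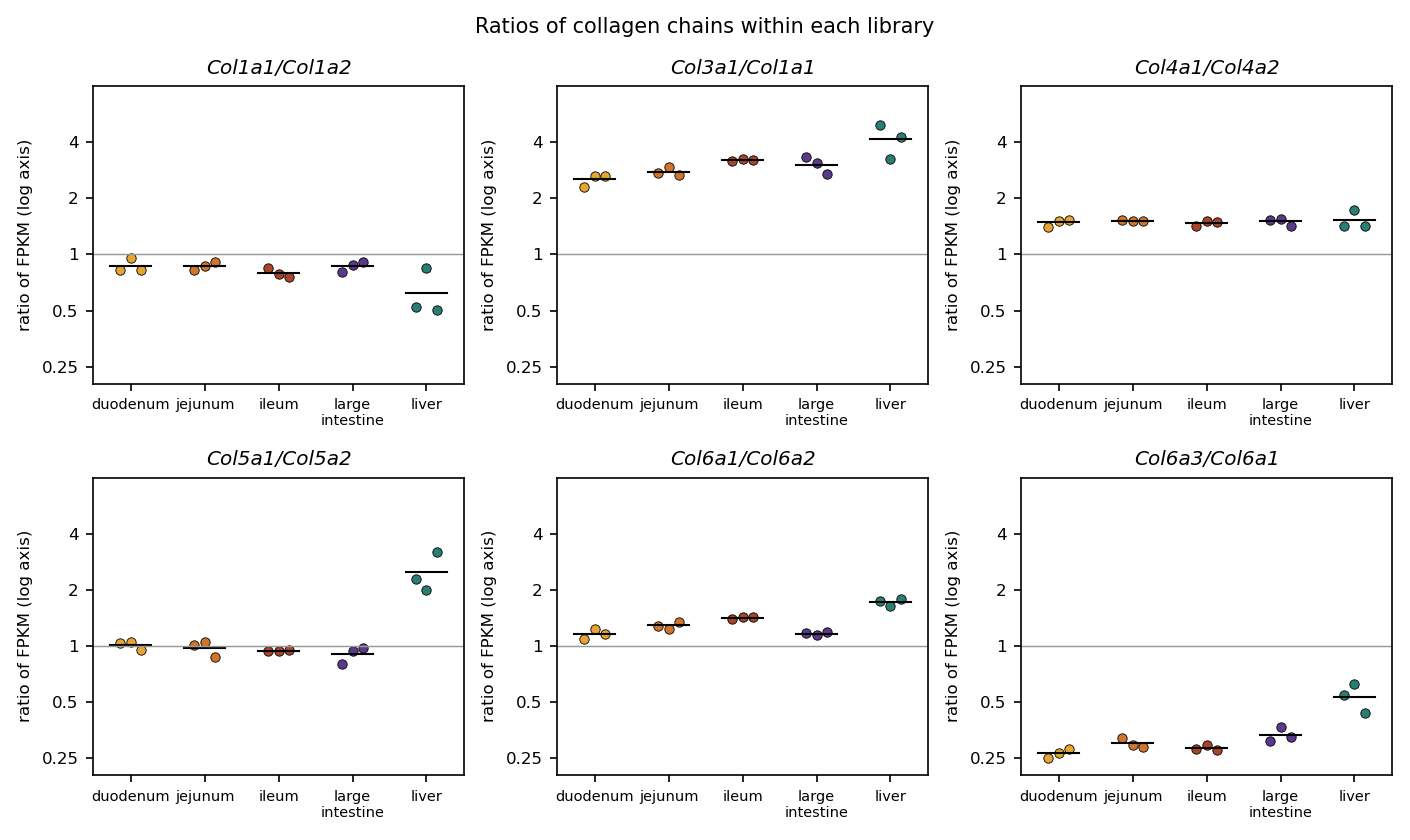
Ratio of FPKM of 2 collagen chains within each library, on a log axis, by tissue; points are libraries and bars the mean of 3. Col4a1 to Col4a2 keeps to 1.41 to 1.74 in all 15 libraries, while Col5a1 to Col5a2 is 0.80 to 1.05 in intestine and 1.99 to 3.20 in liver.

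Genes that act on collagen were read from lists of the same pathway. Their counts stand beside shares over all genes of 30.6%, 36.9%, 34.3% and 41.8% higher than liver in gut order, and of 8.78% higher and 5.84% lower in large intestine than in small intestine. Of 18 tested genes of chain modification and folding, 8 (44.4%, near the 41.8% of all genes) were higher in large intestine than in liver and 0 lower, with a median log2 difference of 0.73, below the 0.83 of all genes. Serpinh1, the collagen-specific chaperone, led at 2.94 (SE 0.24, limma adjusted p = 6.06e-08), with 50.2, 48.1 and 51.4 FPKM in large intestine, against 6.80, 6.10 and 4.30 FPKM in liver. In duodenum, jejunum and ileum against liver 3, 5 and 4 of the list were higher, each a smaller share than over all genes, led by Serpinh1 at 1.78, 2.27 and 2.23, and 2, 1 and 1 lower, led by the lysyl hydroxylase Plod1 at -1.20, -1.005 and -1.02. Against small intestine 6 were higher in large intestine, led by the prolyl hydroxylase subunit P4ha2 at 1.27, and 1 lower, its partner P4hb at -1.40.

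Of 8 tested genes of procollagen cleavage and cross-linking, 4 (50.0%) were higher in large intestine than in liver, led by the lysyl oxidase Loxl2 at 2.93, and 1 was lower, the procollagen C-proteinase Bmp1 at -1.47. Loxl2 also led in duodenum, jejunum and ileum against liver, where 1, 3 and 2 were higher, a smaller share than over all genes in duodenum and ileum and a like one in jejunum, and 0 lower. Against small intestine 3 were higher in large intestine, led by Loxl1 at 1.27. Of 12 proteoglycans and proteins that bind fibrils, 8 (66.7%) were higher and 1 lower in large intestine than in liver, led by Dpt at 4.47 and by fibronectin, Fn1, at -2.14. Fn1 was the 1 gene lower in each small section too, at -3.76 to -3.21, and Fbln1 led the 5 to 8 higher ones at 4.43 to 5.67. Against small intestine 7 were higher in large intestine, led by Dpt at 1.71, and against duodenum 3 were higher in jejunum, led by Lum at 1.15. Dpt, Fbln1 and Lum also stand in the fibroblast marker list, so the counts of these lists are not independent.

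Of 15 tested basement membrane partners such as laminins, 13 (86.7%) were higher in large intestine than in liver, led by the laminin chain Lamb3 at 4.23, and 0 lower. In duodenum, jejunum and ileum 5, 13 and 13 were higher, led by Lamb1 at 1.80, 2.72 and 2.57. Against small intestine 3 were higher in large intestine, led by Lamb3 at 2.27. Of 8 collagen receptors, 7 (87.5%) were higher in large intestine than in liver and 3, 4 and 4 in duodenum, jejunum and ileum, each time led by Ddr1 at 3.85 to 4.56, and limma called 0 against small intestine, with 7 at an unadjusted p under 0.05 and 4 of 9 called once libraries were rescaled to the same sum.

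Of 12 genes of collagen breakdown, 9 (75.0%) were higher in large intestine than in liver, led by the gelatinase Mmp2 at 3.75. In duodenum, jejunum and ileum 7, 8 and 7 were higher, led by Mmp7, a protease of Paneth cells, at 5.56, 7.28 and 7.25. Against small intestine 5 were higher in large intestine, led by Mmp15 at 1.68, and 4 lower, led by Mmp7 at -5.65. Mmp7 was also the 1 gene of the list higher in jejunum than in duodenum, at 1.72. Between jejunum and duodenum limma made 0 calls among chain modification, cross-linking, basement membrane and receptor genes, of which 10, 5, 13 and 6 had an unadjusted p under 0.05. Between ileum and jejunum it made 0 calls in all 6 lists, with at most 1 gene of a list under that p.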

How the data were processed

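RNA of 5 mouse tissues was sequenced in 15 libraries, 3 per tissue. The authors deposited gene levels as FPKM, with 23845 rows, and 0 value columns matched no sample. Per the submitters' processing notes the tools were CASAVA, FastQC, TopHat2 2.0.3, Bowtie 0.12.8, SAMtools 0.1.18 and Cufflinks 2.0.0 with build mm10. Cufflinks estimates split reads among transcripts, so 754 rows that share a symbol, none of them a collagen, were summed here. 27 rows with a date in place of a symbol were kept apart.

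Genes with at least 1 FPKM in at least 3 libraries were tested as log2(FPKM + 1), a scale that compresses the low end, in 1 limma 3.58.1 model (R 4.3.3, statmod 1.5.0, eBayes with trend and robust) with a mean per tissue. P-values were adjusted by Benjamini-Hochberg over all genes of each of 7 comparisons. The model was tested on simulated data. Summed levels and ratios got no test. Gene types and companion and marker lists were written from general knowledge, and members, lists and tests were chosen with earlier results of these data known. All 26 collagens past the filter are named, with the called genes of largest difference in each companion list. RefSeq windows (GRCm38.p6) matched 35 of 44 collagens by symbol, and all 44 positions overlap the GENCODE M21 gene of the same symbol. Alternatives were a pseudocount of 0.1, other filters, 3 scalings, a replicate block, other classes and libraries left out. Tables and figures used Python 3.11.15, pandas 2.3.3, numpy 2.4.6 and matplotlib 3.10.9.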

Additional observations from a re-analysis of the deposited data

How the results depend on the processing

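Counts of collagens are given for the settings that moved them by over 1.5 times. With a pseudocount of 0.1, 20 were higher in duodenum than in liver, 2 lower in large intestine than in liver, and 10 higher in jejunum than in duodenum. With median-of-ratios scaling, 4 were lower in each of jejunum, ileum and large intestine than in liver, and 0 higher in jejunum than in duodenum. Quantile normalization gave 7 higher in duodenum and 9 in ileum than in liver, 4 lower in jejunum, 4 in the ileum and 5 in large intestine, and 1 higher in jejunum than in duodenum. Rescaling to the same sum gave 0 for that last count, as did leaving out both jejunum 24 and ileum 24, and leaving out 1 library at a time gave 0 to 12.

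The ratio of summed FPKM in large intestine over liver was 4.31 with median-of-ratios scaling and 12.7 with the same sum for fibrillar genes (9.34 as deposited). It was 2.46 and 7.26 for type IV (5.34), and 0.590 with types VII, XV and XVIII counted as basement membrane. For other types it was 0.522 and 1.55 (1.14), and 11.1 with those types moved. The direction for type IV thus turned on where types VII, XV and XVIII were placed, and that for other types on the scaling. Why the scalings differ was not tested. No called gene turned its direction in any setting.

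Whether libraries with the same title number come from the same animal cannot be told from the labels or the values. Of 22 pairs with the same number 4 had a correlation of deviations over 0.1, as had 10 of 68 pairs with different numbers. With a replicate block 14, 17, 16 and 20 collagens were higher and 3, 2, 3 and 1 lower than liver in gut order, 10 higher and 1 lower in large intestine than in small intestine, 3 higher in jejunum than in duodenum, and 0 called between ileum and jejunum. The block added Col5a1 (1.06) and Col12a1 (1.16) in duodenum, Col4a5 (1.02) and Col27a1 (-1.03) in ileum and Col20a1 (1.002) in large intestine, and it removed Col6a5 (0.98) in ileum. Each count has 3 libraries a tissue and an unknown depth behind it, and the 18 collagens that did not reach 1 FPKM in 3 libraries have no test.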
